A study of Mus musculus with 13 samples.

Results

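Messenger RNA was measured in mouse lung for 10 genes that mark the endothelium of the lung capillaries: Car4, Ednrb, Apln, Aplnr, Gpihbp1, Plvap, Kdr, Tbx2, Prx and Vwf. They were taken by symbol from the deposited gene tables, where they are 10 of 20270 genes, and all 10 had enough counts to be among the 15315 genes tested. The list was drawn up from what is known of lung endothelium and not from a threshold on the measured values. It was, however, chosen with earlier results of these data known.

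Blood crosses the alveolar wall through a dense capillary net whose endothelium holds different cell states. Aerocytes are large, thin cells apposed to type I epithelium, and are known for Car4 (a membrane-bound carbonic anhydrase that speeds the release of carbon dioxide), Ednrb (the endothelin B receptor, which binds and clears endothelin), Apln (the peptide apelin) and the transcription factor Tbx2. General capillary cells are known for Aplnr (the apelin receptor), Gpihbp1 (the protein that carries lipoprotein lipase to the capillary lumen) and Plvap (the protein of fenestral and caveolar diaphragms), and act as a source of new capillary cells. Kdr encodes VEGFR2, the main receptor for VEGF-A, and Prx encodes periaxin, a scaffold protein of Schwann cells that lung capillaries also express. Vwf encodes von Willebrand factor, the platelet-binding protein stored in endothelial granules, and is more typical of larger vessels than of capillaries.

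The libraries were 4 from control mice, 5 from wildtype (WT) mice given bleomycin and 4 from mice lacking Cnr1, the gene of the cannabinoid receptor CB1R (CB1R KO), also given bleomycin. Control mice were wildtype and received vehicle, and the other mice were dosed once with bleomycin by the oropharyngeal route (1 U per kg), which injures the lung and leads to fibrosis, 14 days before collection. Wildtype C57Bl/6J males were 13 weeks old, the CB1R KO line was on the same background, and its age is not given separately in the sources used here. Each library came from the lower right lobe of the lung and holds RNA of every cell type there, and untreated CB1R KO mice are not analysed here. Libraries are named by the numbers in their labels, and per-library values are always listed in the order 3, 21, 24 and 26 for control, 4, 2, 5, 4-B2 and 7 for WT bleomycin, and 8, 9, 10 and 11 for CB1R KO bleomycin. WT bleomycin 4 and 4-B2 share a number, what B2 stands for is not given in the sources used here, and they were counted as separate samples. Over 15315 genes the SD of their log2 CPM difference was 0.486, beside 0.408 to 0.465 for the other 9 pairs of WT bleomycin libraries.

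Estimated counts summed to between 14615904 and 16662580 in 12 of the 13 libraries, and to 53463884 in CB1R KO replicate 11. The tissue was lung with a strong endothelial part: all 24 pan-endothelial genes of a fixed list (Pecam1, Cdh5 and others) were tested, and their summed abundance in TPM (a unit corrected for transcript length and scaled to the same total in every library) lay between 4410.1 and 4893 in control lungs, beside 31863 to 37229 for 7 type II cell markers. Cnr1 was counted in every library, with 86, 41, 74.1 and 188 estimated counts in those labelled CB1R KO. The tables do not tell which transcript regions the counts came from, so Cnr1 does not check the genotype and directions rest on the labels.

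The promoters of the genes that fell most by fold change are shown to give the sequence in front of them. RefSeq promoter sequence (build GRCm38.p6, not the GRCm39 build of the authors' reference) was matched for 5 of the 10 genes, Apln, Car4, Ednrb, Kdr and Prx. The 250 bases before the annotated start are given 5′ to 3′ on the gene's own strand for Ednrb (chr14:103843702-103843951, minus strand), Kdr (chr5:75978456-75978705, minus strand) and Car4 (chr11:84957504-84957753, plus strand). Capitals mark CACCC or its reverse complement GGGTG, the core letters that KLF factors bind.
Ednrb: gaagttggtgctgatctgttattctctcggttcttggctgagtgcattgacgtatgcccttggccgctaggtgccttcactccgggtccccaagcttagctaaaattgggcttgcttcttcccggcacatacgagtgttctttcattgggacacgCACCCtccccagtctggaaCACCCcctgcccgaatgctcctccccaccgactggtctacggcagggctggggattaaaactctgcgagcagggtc
Kdr: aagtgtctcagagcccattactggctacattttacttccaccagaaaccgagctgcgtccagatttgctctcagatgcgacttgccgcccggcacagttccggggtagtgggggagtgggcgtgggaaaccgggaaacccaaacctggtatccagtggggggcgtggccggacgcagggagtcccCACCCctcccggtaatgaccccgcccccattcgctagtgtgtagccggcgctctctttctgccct
Car4: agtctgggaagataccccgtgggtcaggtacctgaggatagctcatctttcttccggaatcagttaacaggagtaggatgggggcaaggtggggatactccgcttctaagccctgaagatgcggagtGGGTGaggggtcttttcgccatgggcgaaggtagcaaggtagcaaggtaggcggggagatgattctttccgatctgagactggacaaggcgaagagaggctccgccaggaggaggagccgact

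Over the full window of 250 bases before to 50 bases after the start, searched on both strands, CACCC occurred in 4 of the 5 matched genes, all but Apln, and in 57.5% of 32851 promoter windows of the same length. The ETS letters AGGAAGT, the FOX letters TGTTTAC and the GATA letters AGATAA occurred in none of the 5 windows, beside 9.35%, 3.65% and 11.2% of all windows. These are matches of letters and do not show binding.

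The first comparison asks what bleomycin did to the capillary genes in wildtype lungs. Of the 10 genes, 8 fell and 1 rose, with Aplnr not called. Among all genes tested 48.9% were called in this comparison, 23.9% lower and 25% higher (quasi-likelihood test of edgeR, Benjamini-Hochberg adjusted, threshold 0.05). The median log2 fold change was -0.61 over the 10 genes and -0.01 over all genes tested. In counts scaled to library size (CPM) the WT bleomycin and control libraries did not overlap for 8 genes, 7 lower and 1 higher, while 18.8% of all genes were lower and 21.5% higher without overlap. Marker lists of other cells moved in the same lungs: 7 fibroblast markers summed to 703 to 742 TPM in control and 2075 to 2804 in WT bleomycin lungs, 7 macrophage markers to 272 to 358 and 1129.7 to 1314, and 7 type II cell markers to 31863 to 37229 and 19000.4 to 22704. Of the 7 fibroblast markers, 4 were called higher, 1 lower and 2 not called. Mean TPM of Col1a1, Col1a2 and Col3a1 was 58.0, 121 and 139 in control and 518, 635 and 982 in WT bleomycin lungs. Pdgfra was at 88.2 and 85.9 without a call. The part of these other cells in the fall of the capillary genes was not tested. In bulk tissue, fewer capillary cells and less RNA per cell cannot be told apart.

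**Figure D1:**
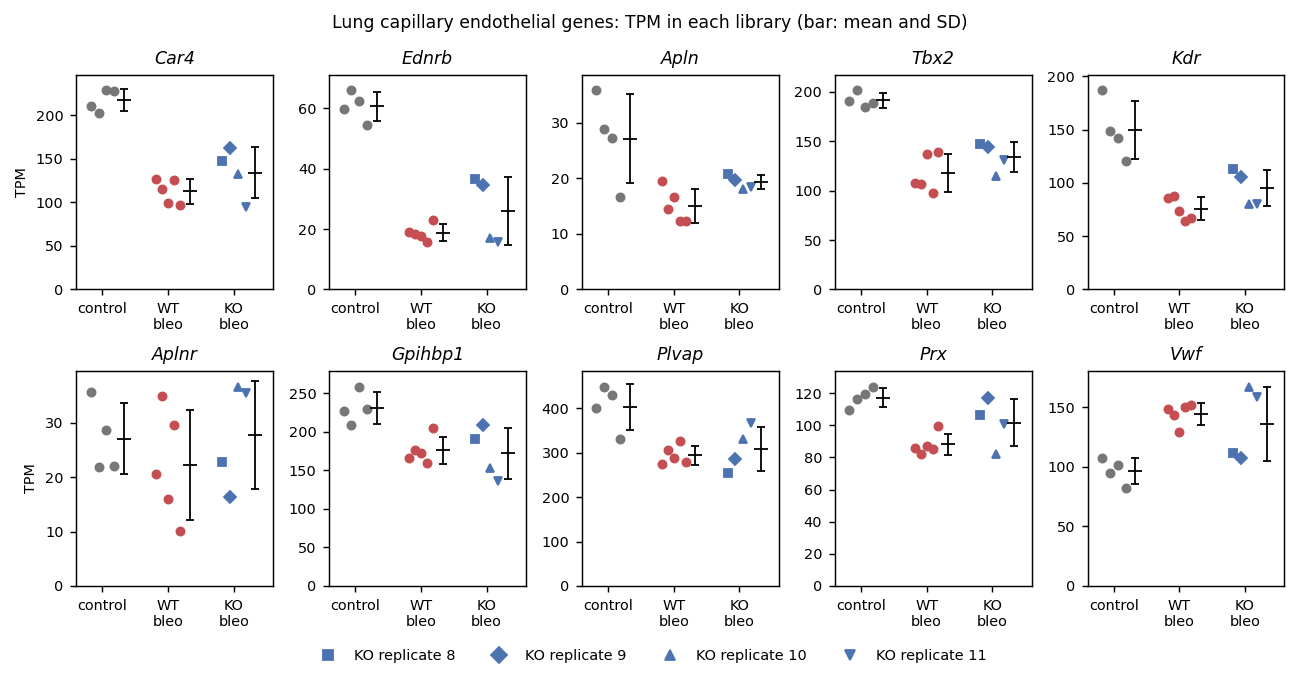
TPM of the 10 genes (y axis, from 0) in each library by group (x axis), with points for libraries, bars for mean and SD, and a symbol for each CB1R KO library. Ednrb falls from between 54.3 and 65.9 TPM in control to between 15.6 and 23.1 in WT bleomycin lungs, Vwf rises, and the CB1R KO libraries are spread widely for Ednrb and Vwf.

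Ednrb, the endothelin B receptor, had the largest change of the 10. Its TPM was 59.6, 65.9, 62.5 and 54.3 in control lungs and 19.2, 18.2, 17.6, 15.6 and 23.1 in WT bleomycin lungs, so that every treated lung lay far below the lowest control value. In the fit it fell by 70.2% (log2 fold change -1.75, standard error 0.22, edgeR adjusted p = 1.72e-05). Its level in CB1R KO bleomycin lungs, at 36.6, 34.7, 17.1 and 15.6 TPM, was in replicates 8 and 9 between the other groups and in replicates 10 and 11 within or at the edge of the WT bleomycin range.

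Car4, the membrane carbonic anhydrase, and Kdr, the VEGF receptor, fell by similar amounts. Car4 TPM was 210.5, 202, 228 and 227 in control, 127, 115, 98.8, 126 and 96.7 in WT bleomycin, and 147, 162, 132 and 94.5 in CB1R KO bleomycin lungs. Kdr TPM was 187, 149, 142 and 120.3 in control, 86.0, 88.1, 73.9, 64.3 and 67.3 in WT bleomycin, and 113, 106, 80.2 and 80.4 in CB1R KO bleomycin lungs. For both genes the control libraries lay above every bleomycin library, while the 2 bleomycin groups overlapped. In WT bleomycin lungs Car4 fell by 49.3% (log2 fold change -0.98, standard error 0.12, adjusted p = 1.90e-05) and Kdr by 50.5% (log2 fold change -1.01, standard error 0.13, adjusted p = 1.57e-05, same edgeR test).

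Tbx2 and Apln had smaller fitted changes. Tbx2 TPM was 191, 201, 184 and 189 in control, 108, 107, 137, 98.0 and 139.5 in WT bleomycin, and 147, 144, 115 and 131 in CB1R KO bleomycin lungs. Lung fibroblasts also express Tbx2, and its controls did not overlap with either treated group. It was lower in WT bleomycin than in control lungs by a log2 fold change of -0.73 (standard error 0.11, adjusted p = 7.52e-05, edgeR). Apln TPM was 35.8, 29.0, 27.3 and 16.6 in control, 19.6, 14.5, 16.6, 12.4 and 12.3 in WT bleomycin, and 20.9, 19.8, 18.2 and 18.4 in CB1R KO bleomycin lungs. Control replicate 26 fell within the treated range, so the groups overlapped, and the fitted change of Apln was -0.88 on the log2 scale (standard error 0.17, adjusted p = 0.000527, edgeR).

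Among the genes of general capillary cells, Gpihbp1 and Plvap fell and Aplnr was not called. Gpihbp1 TPM was 227, 209, 258 and 229 in control, 166, 177, 173, 159 and 205 in WT bleomycin, and 191, 208, 153 and 136 in CB1R KO bleomycin lungs. Plvap TPM was 402, 449, 431 and 331 in control, 274, 305, 288, 326 and 279.5 in WT bleomycin, and 254, 285, 331 and 366 in CB1R KO bleomycin lungs. Both were lower in all 5 WT bleomycin lungs than in any control lung, with log2 fold changes of -0.44 for Gpihbp1 (standard error 0.11, adjusted p = 0.00486) and -0.48 for Plvap (standard error 0.11, adjusted p = 0.00265, edgeR). Aplnr TPM was 35.6, 21.9, 28.8 and 22.1 in control, 20.6, 35.0, 16.1, 29.6 and 10.0 in WT bleomycin, and 22.8, 16.3, 36.6 and 35.5 in CB1R KO bleomycin lungs. The apelin receptor varied more among libraries of a group than between groups (log2 fold change -0.31, standard error 0.31, adjusted p = 0.435, edgeR), and the 2 lowest values, 10.0 and 16.1, were both in WT bleomycin lungs.

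Prx and Vwf moved in opposite directions. Prx TPM was 109, 116, 119.6 and 124 in control, 86.2, 82.3, 87.0, 85.5 and 99.7 in WT bleomycin, and 107, 117, 82.3 and 101 in CB1R KO bleomycin lungs. In WT bleomycin lungs Prx fell by 27.0%, with no overlap (log2 fold change -0.45, standard error 0.10, adjusted p = 0.00134, edgeR). Of 8 Schwann cell markers, another source of Prx, 6 were high enough to be tested, 3 of them fell and 1 rose, and their summed level was 45.1 to 54.9 TPM in control and 61.1 to 65.8 in WT bleomycin lungs. The part of Schwann cells in the fall of Prx was not tested. Vwf TPM was 107, 94.9, 102 and 82.3 in control, 149, 144, 129, 151 and 152 in WT bleomycin, and 112, 107, 167 and 159 in CB1R KO bleomycin lungs. It rose by 46.1% in WT bleomycin lungs, all 5 of them above the controls (log2 fold change 0.55, standard error 0.13, adjusted p = 0.00249, edgeR), a call that was lost among the libraries with lower-case labels only (0.42, adjusted p = 0.0561).

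Vwf is also made by megakaryocytes, platelets, veins and lymphatic vessels. The 8 platelet and megakaryocyte markers had a summed TPM of 82.9 to 142 in control and 36.9 to 61.0 in WT bleomycin lungs. Of these 8, 7 were called lower, among them Ppbp (log2 fold change -2.17) and Itga2b (-1.42). The 7 lymphatic markers summed to 382 to 475 TPM in control and 667 to 925 in WT bleomycin lungs, with 5 called higher and none lower. Pdpn, on the lymphatic list, is also on the type I cell list. The 7 venous genes summed to 211 to 228 and 251 to 259.7 TPM. The part of megakaryocytes, platelets, and lymphatic and venous vessels in the rise of Vwf was not tested.

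**Figure D2:**
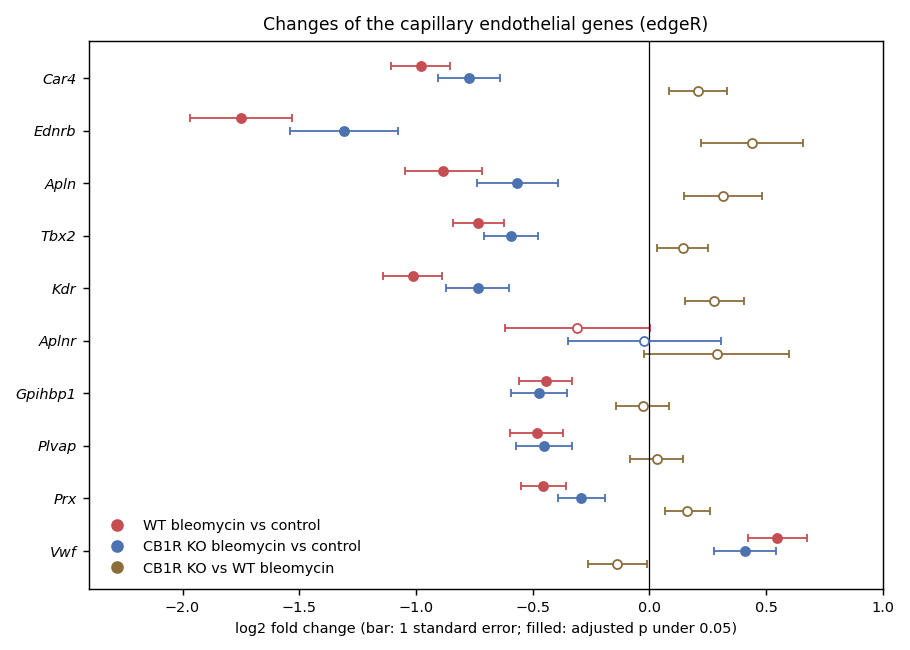
Log2 fold change (x axis) of each gene (y axis) in the 3 comparisons, with bars of 1 standard error and filled points for an adjusted p under 0.05 in edgeR. Against control, 9 of 10 genes are filled in each bleomycin group, and none is filled between CB1R KO and WT bleomycin lungs.

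The order of the levels, compared in TPM because it is scaled for transcript length, changed with bleomycin. In control lungs Plvap had the highest mean, 403 ± 51.9 (SD, n = 4), followed by Gpihbp1, Car4, Tbx2, Kdr, Prx, Vwf, Ednrb, Apln and Aplnr, the last at 27.1 ± 6.52. The libraries of neighbours in this order overlapped for Gpihbp1 and Car4, Tbx2 and Kdr, Kdr and Prx, and Apln and Aplnr. Vwf moved from rank 7 in control to rank 3 in both bleomycin groups, at 145 ± 9.32 TPM (SD, n = 5) in WT and 136 ± 31.0 (n = 4) in CB1R KO lungs, where it overlapped with the next gene, Tbx2. Kdr moved from rank 5 to rank 7 and Ednrb from rank 8 to rank 9, with overlap between Kdr and Prx and between Ednrb and both of its neighbours in each bleomycin group. The 10 genes together summed to 1520.1 ± 85.2 TPM in control, 1066 ± 20.6 in WT bleomycin and 1155 ± 31.0 in CB1R KO bleomycin lungs.

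Genes shared by all endothelium fell too, and the 10 genes were therefore set against 24 pan-endothelial genes. Of these 24, 18 fell and none rose in WT bleomycin against control (median log2 fold change -0.48), among them the endothelial lectin Clec14a (-1.53), the adrenomedullin receptor component Ramp2 (-1.12) and the TGF-beta co-receptor Eng (-0.82). Their mean log2 CPM was 7.75 ± 0.05 (SD, n = 4) in control, 7.28 ± 0.08 (n = 5) in WT bleomycin and 7.39 ± 0.06 (n = 4) in CB1R KO bleomycin lungs. Subtracting this mean in each library left differences between WT bleomycin and control lungs of -1.28 on the log2 scale for Ednrb, -0.53 for Kdr and -0.51 for Car4, each with no overlap between the groups.

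On this relative scale Vwf was higher by 1.02, also with no overlap. The differences of Apln (-0.38) and Tbx2 (-0.27) overlapped. Those of Aplnr (0.07), Gpihbp1 (0.03), Prx (0.02) and Plvap (0.00) between WT bleomycin and control lungs were smaller than the spread among libraries. In CB1R KO bleomycin against control, Ednrb (-1.04), Car4 (-0.43) and Tbx2 (-0.23) were lower and Vwf (0.75) higher with no overlap, while Kdr (-0.37) overlapped. Between the bleomycin groups all 10 overlapped. These relative values are a description and were not tested.

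**Figure D3:**
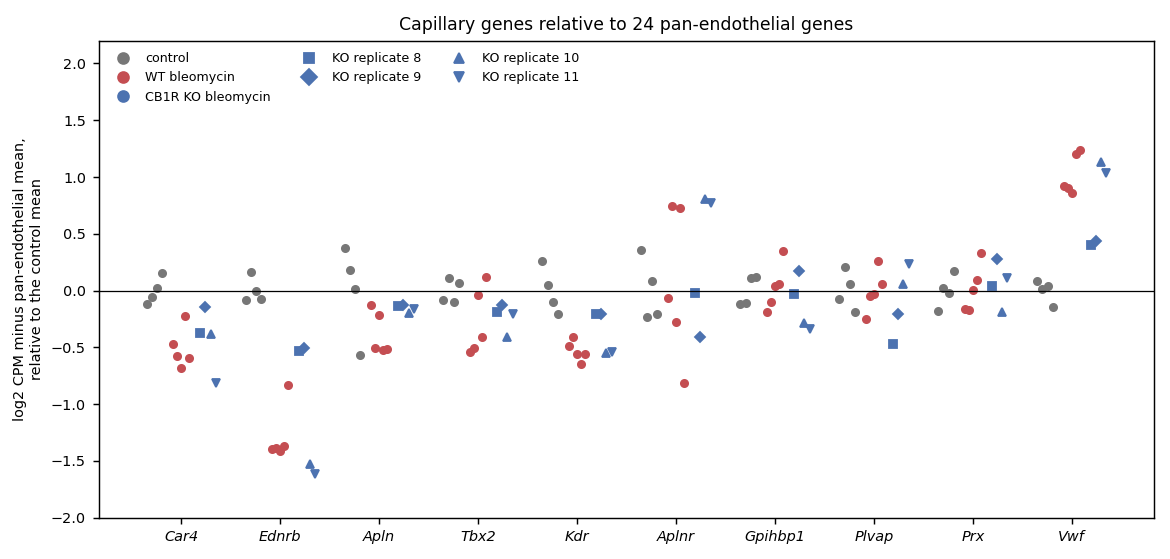
Log2 CPM of each gene minus the mean log2 CPM of 24 pan-endothelial genes in the same library, shown relative to the control mean (y axis), for each gene (x axis) with 1 point per library. Ednrb, Car4 and Kdr of WT bleomycin lungs lie below all control points and Vwf above them, while Gpihbp1, Plvap and Prx lie around 0.

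The second comparison asks whether deletion of Cnr1 altered the capillary genes after bleomycin. In edgeR, with the same adjustment, 0 of the 10 genes passed, where 0.979% of all genes tested were called, 0.359% higher and 0.62% lower in CB1R KO. The call count over all genes, 150, depended on single libraries: it was 1, 3 and 9 without CB1R KO replicate 9, 11 and 8 and 653 without CB1R KO replicate 10, and 24, 30, 35 and 62 without WT bleomycin replicate 5, 4-B2, 7 and 2, 230 without WT bleomycin replicate 4 and 85 without control replicate 24. At an unadjusted p under 0.05, 1 of the 10 passed in edgeR (Kdr) and 17% of all genes. DESeq2 and limma each gave 0 of the 10 by adjusted p, where they called 640 and 109 over all genes. Each gave 2 of the 10 by unadjusted p, for which the share over all genes is not given here. The libraries of the 2 groups overlapped for all 10, while 2.47% of all genes were higher and 3.12% lower without overlap, and the median log2 fold change was 0.18 over the 10 and 0.00 over all genes.

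The differences, CB1R KO over WT bleomycin on the log2 scale, were 0.44 for Ednrb (standard error 0.22, adjusted p = 0.329), 0.32 for Apln (0.17, adjusted p = 0.356), 0.29 for Aplnr (0.31, adjusted p = 0.677), 0.28 for Kdr (0.13, adjusted p = 0.277) and 0.21 for Car4 (0.13, adjusted p = 0.424), all from the same edgeR test. Those of Prx, Tbx2, Plvap, Gpihbp1 and Vwf lay between -0.14 and 0.16. The median standard error over all genes in this comparison was 0.113, and an adjusted p over the threshold does not show that the groups were alike.

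The 4 CB1R KO lungs differed among themselves. Replicates 8 and 9 had more Ednrb (36.6 and 34.7 TPM) and Kdr (113 and 106) than any WT bleomycin lung and less Vwf (112 and 107), while replicates 10 and 11 were at 17.1 and 15.6 for Ednrb, 80.2 and 80.4 for Kdr and 167 and 159 for Vwf. Aplnr went the way of Vwf, at 22.8 and 16.3 against 36.6 and 35.5, and Plvap likewise at 254 and 285 against 331 and 366. Of 29 other gene lists, counted without the 10 genes, 10 had a higher and 7 a lower summed TPM in both of replicates 8 and 9 than in 10 and 11, and 12 did not separate them. Examples that did were 7 cell cycle genes (62.4, 79.6, 148 and 193 TPM in replicates 8, 9, 10 and 11) and 7 fibroblast markers (1624, 1587, 2316 and 2078). The type II cell markers (33114, 37268, 23733 and 35888) and type I cell markers (4750.4, 4491, 3552 and 4608) had replicate 11 with 8 and 9, and the adipocyte markers (76.6, 336, 140.3 and 317) had 8 with 10. Replicate 11 is the deep library, and replicate 10 is not. The labels give no reason for the split and its part in the comparison was not tested. With any 1 library left out, or with replicate 11 thinned to the depth of the others, 0 of the 10 genes passed between CB1R KO and WT bleomycin.

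The third comparison sets CB1R KO bleomycin lungs against the same control lungs that the first comparison used. Again 9 of the 10 genes were called, 8 lower and Vwf higher, where 35.4% of all genes were called, 16.3% lower and 19% higher. Ednrb was lower by a log2 fold change of -1.31 (standard error 0.23, adjusted p = 0.000637), Car4 by -0.77 (0.13, adjusted p = 0.000495) and Kdr by -0.74 (0.13, adjusted p = 0.000775, edgeR). Tbx2 (-0.59), Apln (-0.57), Gpihbp1 (-0.47), Plvap (-0.45) and Prx (-0.29) followed, Vwf was higher by 0.41 (adjusted p = 0.0261, edgeR), and Aplnr was at -0.02. In CPM, 5 genes were lower with no overlap (Car4, Ednrb, Tbx2, Kdr and Gpihbp1), beside 15.8% of all genes, and none was higher, beside 17.7%. The calls of Prx, Apln and Vwf were lost under some alternatives: without control replicate 21, 24 or 26 or CB1R KO replicate 8, 10 or 11 or WT bleomycin replicate 5 for Prx (adjusted p up to 0.120), without control replicate 3 or 21 or CB1R KO replicate 10 or 11 for Apln (up to 0.0730 among these), and without control replicate 21 or 26 or CB1R KO replicate 10 or 11 for Vwf (up to 0.0874).

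Other genes of the same cells were read from lists. Of 7 further aerocyte genes, 5 fell and 2 rose in WT bleomycin against control (median -0.69), with Fibin at -1.90 and Rprml at -1.54, and with Sirpa at 0.78 and Cdkn2b at 0.67 the 2 that rose. Sirpa encodes a receptor abundant on macrophages and Cdkn2b a cell cycle inhibitor. The part of macrophages, whose markers rose, in the Sirpa value was not tested. Of 9 further general capillary genes, 8 fell and 1 rose (median -0.93), with Tek, the angiopoietin receptor, at -0.93 (adjusted p = 6.90e-08, edgeR), Tspan7 at -1.12 and Ptprb at -0.81. The exception was Lpl, which macrophages and adipocytes also make, at 0.94. Of 7 macrophage markers 6 rose and none fell (median 1.28), and of 6 adipocyte markers tested 3 fell and none rose (median -1.63). The part of these cells in the Lpl value was not tested.

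**Figure D4:**
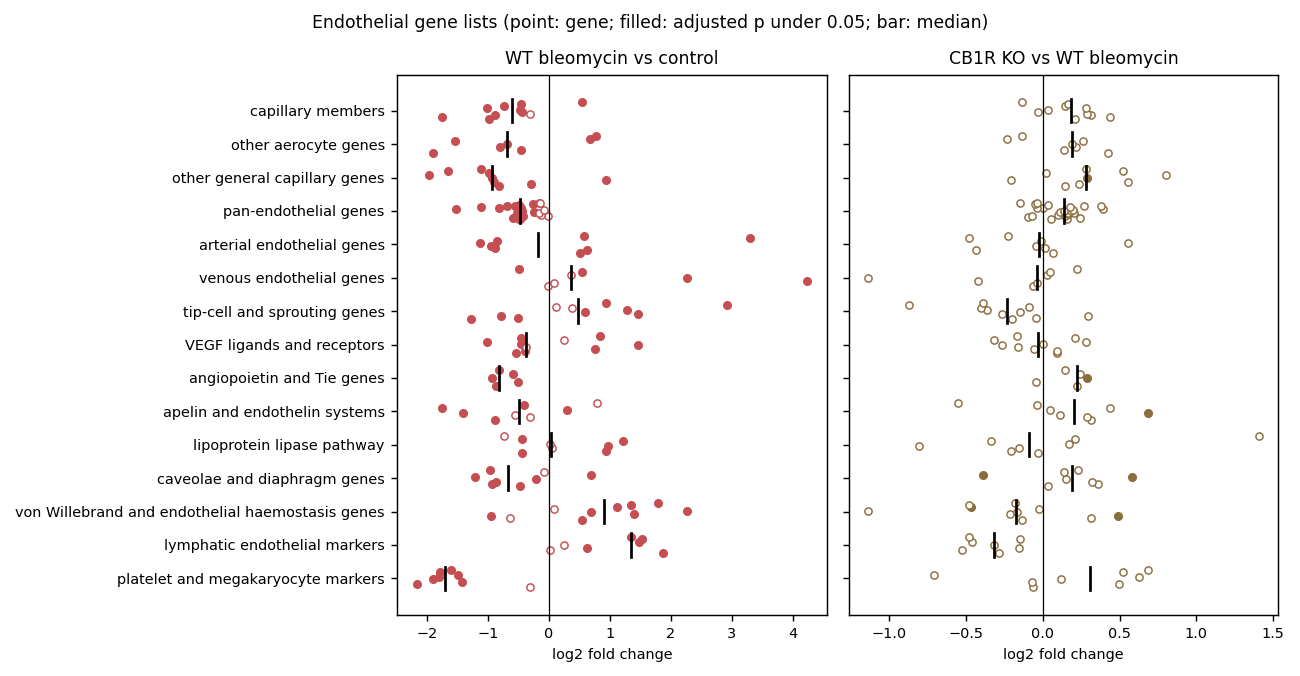
Log2 fold change (x axis) of the tested genes of 15 lists (y axis), of endothelial genes, related pathways, and platelet and megakaryocyte markers. WT bleomycin against control is on the left and CB1R KO against WT bleomycin on the right. There is 1 point per gene, filled for an adjusted p under 0.05 in edgeR, and a bar for the list median. On the left the capillary, pan-endothelial and angiopoietin lists lie mostly below 0 and the haemostasis and lymphatic lists mostly above, while few points on the right are filled.

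The arterial and venous lists were mixed. Of 8 arterial genes, 4 rose and 4 fell, with Dkk2, a Wnt antagonist, at 3.30 and Bmx and Hey1 at -0.96 and -1.14. Of 7 venous genes, 3 rose and 1 fell, led by the chemokine-binding Ackr1 at 4.24 and P-selectin, Selp, at 2.26, with Vcam1 at 0.54. Ackr1 and Dkk2 started from means of 0.427 and 0.833 CPM in control lungs. Of 10 tip-cell and sprouting genes 5 rose and 3 fell, with the basement membrane collagen Col15a1 at 2.93, the netrin receptor Unc5b at 1.28 and the VEGFR1 ligand Pgf at 1.45, while Esm1, the tip-cell proteoglycan endocan, was at -1.28, the chemokine receptor Cxcr4 at -0.79 and the Tie2 ligand Angpt2 at -0.50.

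VEGF ligands and receptors other than Kdr changed in both directions. Vegfa, the main ligand of Kdr, fell by 0.54 on the log2 scale (adjusted p = 2.21e-05, edgeR). Vegfb was at -0.39, and Vegfd (-0.37) was not called, while Vegfc rose by 0.75. The decoy receptor Flt1 and the co-receptor Nrp1 each had a log2 fold change of -0.46, the co-receptor Nrp2 rose by 0.83, and the lymphatic receptor Flt4 (0.25) was not called. All 5 angiopoietin and Tie genes fell (median -0.81), Angpt1 by a log2 fold change of -0.86.

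In the endothelin system the receptor Ednrb and the ligand Edn3 fell together, Edn3 by a log2 fold change of -1.42 (standard error 0.13). Edn1, the ligand best known from endothelium, was at -0.56 without a call (adjusted p = 0.0909, edgeR), the endothelin A receptor Ednra was called higher at 0.29 and the converting enzyme Ece1 lower at -0.42. Edn2 and Apela, a further ligand of Aplnr, were too low to be tested. Around Gpihbp1, Lpl rose while the fatty acid transporter Cd36 was at -0.45 and the lipase cofactor Apoc2 at 1.21, and the lipase inhibitor Angptl4 was at 0.96, a call lost without control replicate 3, 21 or 24 or without WT bleomycin replicate 7.

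Of the other members of these gene families, counted without the 10 genes, some fell and a few rose. Of 11 further carbonic anhydrases tested 4 fell and 2 rose, with the membrane-bound Car14 at -1.21, Car13 at 1.26 and the red cell enzyme Car2 at 0.19 without a call. Of 7 further T-box factors 4 fell, including Tbx3 at -1.02 and Tbx4 at -0.41, and none rose. Of 7 further genes of caveolae and diaphragms 5 fell and 1 rose, with Cavin2 at -1.22, Ehd4 at -0.96 and Cavin3 at 0.69. Of 9 further haemostasis genes 6 rose and 1 fell: Plat, tissue plasminogen activator, rose by 1.11 and Procr, the protein C receptor, by 1.40, while Thbd, thrombomodulin, had a log2 fold change of -0.95. Adamts13, the protease that cleaves von Willebrand factor, was at -0.64 without a call (adjusted p = 0.192, edgeR).

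Between CB1R KO and WT bleomycin lungs, 7 genes of the endothelial and gene family lists above were called by edgeR. Higher in CB1R KO were Tek (log2 fold change 0.29, adjusted p = 0.0391), Edn3 (0.69, adjusted p = 0.0281), Car14 (0.90, adjusted p = 0.0266), Cavin2 (0.58, adjusted p = 0.0411) and Thbd (0.49, adjusted p = 0.0416). Lower were Plat (-0.47, adjusted p = 0.0187) and Cavin3 (-0.39, adjusted p = 0.0457). Tek lay between 279 and 294 CPM in CB1R KO, between 219.9 and 264 in WT bleomycin and between 431 and 465 in control lungs, with no overlap. Each of the 7 lost its call without CB1R KO replicate 8, 9 or 11, with adjusted p between 0.0548 and 0.161. Without WT bleomycin replicate 5 or 7, 6 of them were lost, without 2 or 4-B2, 5, without control replicate 21 or 24, 4, and without control replicate 26, 1. All 7 were also lost among the libraries with lower-case labels only (adjusted p between 0.116 and 0.285, edgeR), 5 with label style as a term and 4 with edgeR on 2 groups. Within the marker lists of other cells the calls were the surfactant genes Sftpc (0.66) and Sftpa1 (0.84) and Lamp3 (0.51) of type II cells and Nkg7 (0.86) of T and NK cells, all higher in CB1R KO, and the smooth muscle gene Tagln (-0.63). Each of these calls was also lost without CB1R KO replicate 8, 9 or 11 (adjusted p between 0.0521 and 0.154, edgeR). Of 25 alternatives, Lamp3 was called in 10, Sftpc and Nkg7 in 13, Sftpa1 in 14 and Tagln in 22.

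How the 10 genes varied together was described by the Pearson correlation of log2 CPM over the 13 libraries after the mean of each group was removed. These points share library composition, and the values carry no test. The highest were Ednrb with Gpihbp1 (0.82), Gpihbp1 with Prx (0.78), Plvap with Vwf (0.72), Apln with Kdr (0.71) and Tbx2 with Prx (0.69), and the lowest were Aplnr with Tbx2 (-0.84), Aplnr with Prx (-0.76) and Ednrb with Vwf (-0.73). Over the 9 control and WT bleomycin libraries alone, a choice made after the spread of the CB1R KO lungs was seen, Apln with Kdr (0.82), Gpihbp1 with Prx (0.79) and Aplnr with Tbx2 (-0.85) were of similar size, while Ednrb with Gpihbp1 was 0.40 and Ednrb with Vwf was 0.39. Of the 45 pairs, 29 had the same sign in both sets of libraries.

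**Figure D5:**
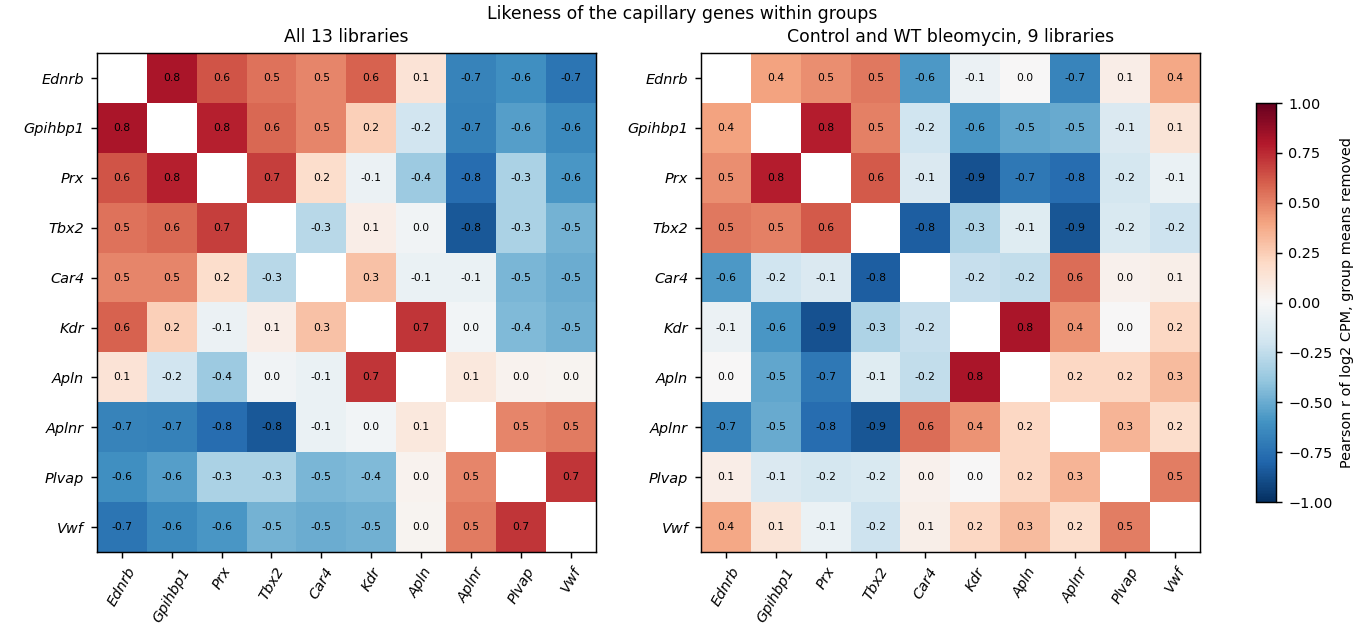
Pearson correlation of log2 CPM (colour and number) between each pair of the 10 genes (both axes) after group means were removed, over all 13 libraries on the left and over the 9 control and WT bleomycin libraries on the right. Aplnr is negative with Tbx2 and Prx on both sides, and the block of Ednrb with Vwf changes sign.

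Over all genes tested, the gene most like each of the 10 within groups was Kif6 for Car4 (0.92), Ehd4 for Ednrb (0.96), C1qtnf2 for Apln (0.93), Gja4 for Aplnr (0.89), Tns1 for Gpihbp1 (0.95), Traip for Plvap (0.97), Ap1s3 for Kdr (0.95), Pgap4 for Tbx2 (0.92), Pdlim2 for Prx (0.95) and Mrps18c for Vwf (0.94). The next were Lrriq1 and Enpp5 for Car4, Inpp5k and Slc22a23 for Ednrb, Zfp46 and Ano5 for Apln, Gosr2 and Snx2 for Aplnr, Ctnnd2 and Frs2 for Gpihbp1, Bcl2a1d and Gmnn for Plvap, Ptpre and Cpm for Kdr, Lamc3 and Mxra8 for Tbx2, Tacc2 and Sec14l4 for Prx, and H2-DMa and Gm4841 for Vwf. With 15315 genes and 13 libraries, values of this size are found by search and are given as a description. The genes nearest to Car4 depended most on the deep library: without CB1R KO replicate 11, Kif6 was at rank 7 (0.86), Enpp5 at rank 36 (0.80) and Lrriq1 at rank 37 (0.80).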

How the data were processed

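The authors quantified paired-end reads with kallisto on the mouse reference (GRCm39 in the submitters' processing notes, Ensembl release 105) and added up estimated counts and TPM of each gene's protein-coding transcripts. The deposited estimated counts are not normalized, and 70.2% of them are not whole (tolerance 1e-06). The deposited TPM are corrected for transcript length and depth. Tables of single samples repeat the series tables and were not used, and 1 TPM column that names none of the samples was left out.

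Counts were rounded, filtered with filterByExpr, scaled by TMM and tested in 13 libraries and 3 groups with edgeR 4.0.16 (quasi-likelihood, R 4.3.3), with Benjamini-Hochberg adjustment over 15315 genes at 0.05. CPM are TMM-scaled, with a prior count of 2 on the log2 scale. The labels name the libraries as separate samples but do not say that each is a separate mouse, so p-values measure the spread between these samples, which may in part be technical. On simulated data 166 of 200 (WT bleomycin against control, 15180 genes) and 170 of 200 (CB1R KO against WT bleomycin, 15197 genes) changes of 1 on the log2 scale were called with the right sign, with 8 and 10 calls among unchanged genes. Smaller changes, such as those of the 10 genes between CB1R KO and WT bleomycin lungs, were not simulated. Python 3.11.15, pandas 2.3.3, numpy 2.4.6 and matplotlib 3.10.9 made tables and plots.

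Genes named beyond the 10 were the 3 with the lowest p in each list (WT bleomycin against control), all list genes called between CB1R KO and WT bleomycin, receptor and ligand partners, and the 3 most alike within groups. Cdkn2b, Esm1, Cxcr4, Angpt2 and Pdgfra were named after their values were seen. The 10 genes and the lists were chosen with earlier results of these data known. Alternatives were no filter, a minimum of 10 counts per library, upper-quartile and RLE scaling, DESeq2 1.42.0, limma 3.58.1 on log2(TPM + 1) and log2(TPM + 0.1), edgeR on 2 groups, label style (capital or lower-case letters, of unknown meaning) as a term or lower-case only, CB1R KO replicate 11 thinned to 16010602 counts, and each library left out.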

Additional observations from a re-analysis of the deposited data

Results flagged for a closer look

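Ednrb in WT bleomycin replicate 7 stood apart from the other WT bleomycin lungs. It had 59.8 CPM, where the other 4 lay between 42.5 and 46.6, and the gap was 0.765 of the range of the group, above Dixon's critical value for 5 samples. This was the only such value among 30 sets of libraries (10 genes in 3 groups), and chance gives about 1 in 20. Without this lung Ednrb remained called between WT bleomycin and control.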

How the results depend on the processing

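Over 25 alternatives, between 8 and 9 of the 10 genes were called in WT bleomycin against control, 0 in CB1R KO against WT bleomycin, and 6 to 9 in CB1R KO bleomycin against control. Over all genes, the calls in WT bleomycin against control ran from 5701 of 15314 to 7753 of 15429. Those in CB1R KO against WT bleomycin ran from 1 of 15423 to 653 of 15417. Those in CB1R KO bleomycin against control ran from 4272 of 15417 to 5704 of 19837. With 1 library left out the counts among the 10 genes were 9 to 9, 0 to 0 and 6 to 9. Of the refitted fold changes of the 10 genes, 713 kept direction and side of the threshold, 25 lost the call and 12 changed sign. In WT bleomycin against control the only lost call was Vwf with lower-case labels only (0.42, adjusted p = 0.0561, edgeR). All sign changes were in values without a call. Between CB1R KO and WT bleomycin, Gpihbp1 was 0.024 with label style as a term, 0.034 with lower-case labels only, and between -0.14 and 0.062 with 1 library left out, positive without WT bleomycin replicate 7 or CB1R KO replicate 10 or 11. Plvap ranged from -0.068 to 0.12 with 1 library left out, negative without WT bleomycin replicate 4 or CB1R KO replicate 10 or 11. In CB1R KO bleomycin against control, Aplnr ranged from -0.17 to 0.17 with 1 library left out, positive without control replicate 3 or 24 or CB1R KO replicate 8 or 9. The cause was not tested. The call of Apln there was also lost in limma on log2(TPM + 1) and log2(TPM + 0.1) (adjusted p = 0.103 and 0.105), and the call of Prx in these (0.0935 and 0.0943), with edgeR on 2 groups (0.0653), with label style as a term (0.0638) and with lower-case labels only (0.101). Vwf was lost with edgeR on 2 groups (0.0595) and lower-case labels only (0.0916). Between CB1R KO and WT bleomycin, DESeq2 called 640 genes, limma 109 and edgeR 150 over all genes, and edgeR 88 on 2 groups, 41 with label style as a term and 6 with lower-case labels only. No paired analysis was possible because the groups share no replicate numbers. Relative to the pan-endothelial genes, 4 of the 10 genes rather than 3 lay below control in CB1R KO bleomycin lungs on log2(TPM + 1). Leaving out the deep library changed the sign of 2 of 45 within-group correlations.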
